A study of Mus musculus with 4 samples.

Results

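Transcripts of the BCL2 family were followed in efferocytic and non-efferocytic bone marrow (BM) macrophages through 10 genes, of 31053 in the count tables. They were picked by symbol for their role in apoptosis, by a rule that uses no measured value, though with earlier results of these data known: the survival genes Bcl2, Bcl2l1, Mcl1, Bcl2a1b and Bcl2a1d, the pore-forming effectors Bax and Bak1, and the BH3-only genes Bcl2l11, Bbc3 and Pmaip1. The set is therefore not one of survival genes alone, since 5 of its 10 members promote death. Each symbol matched 1 row, and all 10 passed the filter on low counts and were tested.

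BM cells came from male C57BL/6J mice, 4 weeks old by the figure legend and 4 to 6 weeks old by the methods, and were grown into macrophages in M-CSF. They were either left alone or co-cultured for 16–18 h with UV-killed, CFSE-labeled cells of RM1, a mouse prostate cancer line. For the co-culture step the methods give a low-serum medium and list no M-CSF in it. The co-cultured cells were sorted as F4/80+CFSE+ (efferocytic), macrophages that carry the dye of the engulfed cells, and the cultures without RM1 as F4/80+ (non-efferocytic). F4/80, a macrophage surface protein, is encoded by Adgre1. The work was done in 2 experiments, each with 1 single-cell RNA library of either kind, which sets 2 efferocytic against 2 non-efferocytic libraries. That the non-efferocytic cells came from cultures without RM1 is taken from the paper's discussion, which calls them macrophages alone. The methods do not state it outright. On that reading the non-efferocytic cells were never exposed to apoptotic cells, so that contact with RM1 cells and their uptake cannot be told apart. The methods give a minimum number of mice per group for the BM macrophage work in general, but how many mice gave the cells of each library here, and whether they were pooled, is not given in the sources used here.

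The BCL2 family decides whether the outer membrane of mitochondria stays intact. BCL2, BCL-XL (the product of Bcl2l1), MCL1 and A1 (the product of the Bcl2a1 genes) hold the effectors BAX and BAK in check, while BH3-only proteins such as BIM (Bcl2l11), PUMA (Bbc3) and NOXA (Pmaip1) neutralise the survival proteins or engage the effectors. Once BAX or BAK opens the membrane, cytochrome c escapes and switches on caspases. Macrophages depend on M-CSF for survival, and A1 and MCL1 are well known in myeloid cells.

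Barcodes with at least 200 genes, at least 1000 unique molecular identifiers (UMIs, each marking 1 captured mRNA molecule) and at most 10% mitochondrial UMIs were kept as cells. Experiment 1 kept 8280 cells of the non-efferocytic and 6695 of the efferocytic library, and Experiment 2 kept 13411 and 8408, with 101216659 to 155224183 UMIs per library. Efferocytic cells held more UMIs, with medians of 17171 and 17475.5 UMIs per cell against 11146 and 9600. Whether this came from RNA content, capture or sequencing depth was not tested. RM1 is a mouse line, so that RNA of engulfed cells would be counted under the same genes. Its part in the UMI totals and in the levels of the members was not tested. All 10 macrophage markers, Adgre1 among them, exceeded 1 CPM (UMIs of a gene scaled to a library total of 1e6) in every library, and 6 of them were lower and 1 higher in efferocytic cells by the test used below. Markers of other cells also moved with the groups, and their part in the results was tested only as given further on: the 12 neutrophil markers summed to 3225 and 3538 CPM in the non-efferocytic libraries and to 1023 and 763 CPM in the efferocytic ones, and 11 of them were lower by that test. The 5 monocyte markers summed to 61.8 and 64.2 CPM against 22.7 and 11.96 CPM, and the 8 fibroblast markers to 160 and 136 CPM against 51.2 and 60.1 CPM. The sum of the 5 osteoclast markers ran the other way, at 53.4 and 75.5 CPM in the non-efferocytic and 80.2 and 99.6 CPM in the efferocytic libraries. By the same test 1 of the 5 was higher and 1 lower. Only 1 exceeded 1 CPM in every library, and Calcr was at 0 in all of them.

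The libraries of Experiment 2 shared 118 cell barcodes, where their sizes would give 16.6, and those of Experiment 1 shared 15. All 63 T or NK cell-like cells of the efferocytic library of Experiment 2 carried barcodes that were also T or NK cell-like cells of the non-efferocytic library, with UMI totals 0.741 to 1.01 times those of their counterparts there. Of their UMIs 57 and 54 were Bcl2, and without shared barcodes the same 5 members were called higher and the same 3 lower as given below (38.2% of all genes called).

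Of the 10 members, 8 differed between the groups (edgeR's quasi-likelihood test on UMIs summed per library, with the experiment as a block and an adjusted p below 0.05). The survival genes Bcl2, Bcl2l1, Bcl2a1b and Bcl2a1d and the effector Bak1 were higher in efferocytic BM macrophages, and the BH3-only genes Bcl2l11, Bbc3 and Pmaip1 were lower. Among all 13869 genes tested 38.9% were called, 19.9% as higher and 19.0% as lower, so that a call by itself was common. In libraries summed over all cells, fewer cells of a kind and less RNA of a gene per cell cannot be told apart. In CPM the 2 efferocytic libraries lay outside the range of the 2 non-efferocytic ones for all 10 members, which was also true of 66.9% of all genes (22.2% higher, 44.7% lower). These changes are shares of a library's RNA, relative to a median of -0.018 on the log2 scale over all genes. Counted as UMIs per cell, the median gene rose by 0.60 and 54.1% of genes were called; all 5 survival genes and Bak1 were then called higher, and none of the 10 was called lower. The call rests on few libraries: without either one of the non-efferocytic libraries edgeR, then fitted without the block, called 0 members at the adjusted threshold, though 5 (Experiment 1 left out) and 6 (Experiment 2 left out) had an unadjusted p below 0.05, and 0.0141% and 0.00% of all genes were called. The lone library of a group is assumed there to vary like the others, and DESeq2 was not run on 3 libraries. Without the efferocytic library of Experiment 1, 5 members were higher and 2 lower (20.4% of all genes called), and without that of Experiment 2, 3 and 1 (8.48%). DESeq2 on all libraries called 5 higher and 4 lower (24.4%), library totals without TMM (edgeR's scaling between libraries) the same numbers (40.0%), and the fit without the block 4 and 1 (17.0%).

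**Figure D1:**
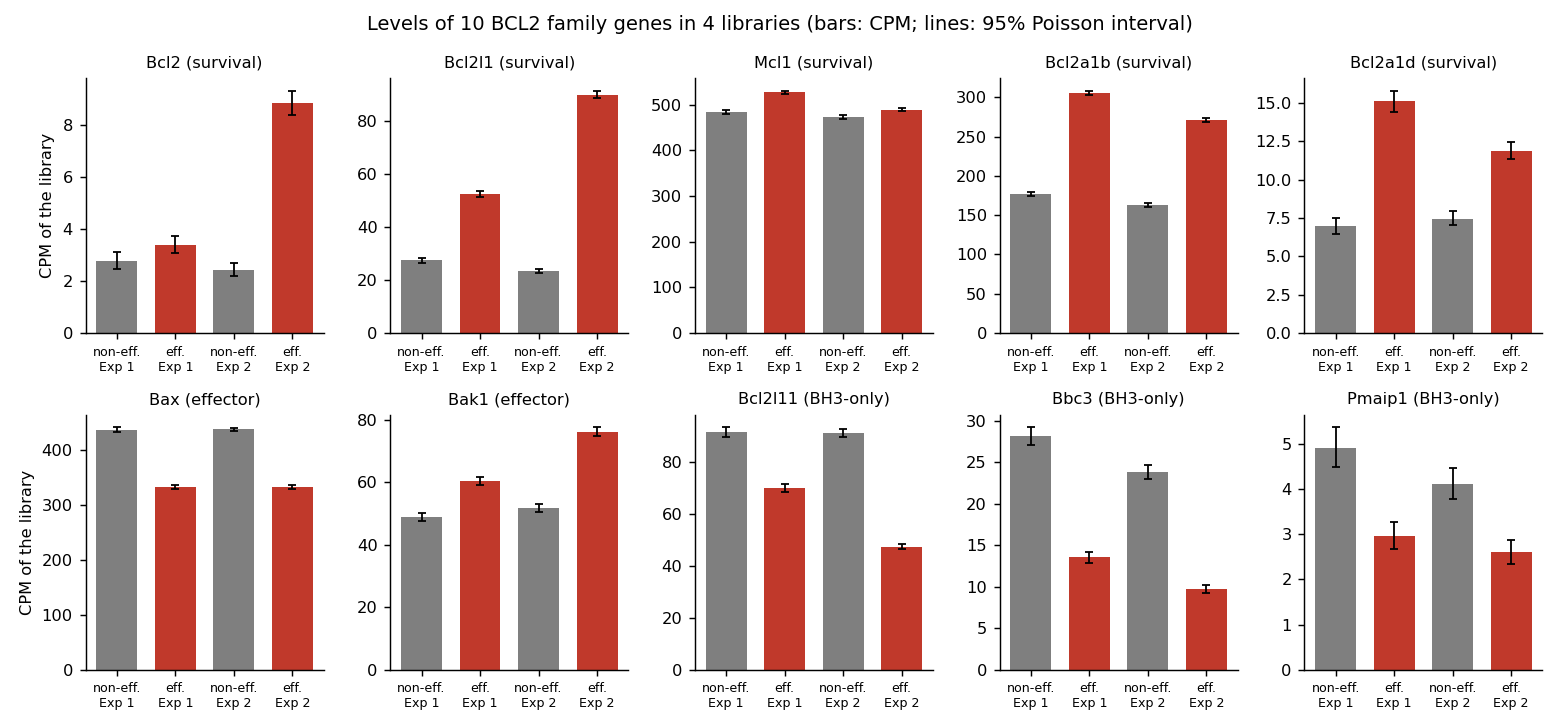
Level of each gene in each library, in CPM on a separate axis from 0 for every gene; grey bars are non-efferocytic and red bars efferocytic libraries of Experiments 1 and 2, and lines are 95% Poisson intervals, which cover counting error only. In both experiments the red bar stands above the grey one for the 5 survival genes and Bak1, and below it for Bax and the 3 BH3-only genes.

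Bcl2l1, the gene of BCL-XL, had the largest log2 fold change of the 10 in fits of all 4 libraries, except with 10% of UMIs removed as free RNA (1.57, against 2.20 for Bcl2, which rested on Experiment 2 alone). Within Experiment 1 the log2 CPM ratio of Bcl2a1d was larger (1.11, against 0.93). With 1 library left out, the log2 fold change of Bcl2l1 went down to 1.19 and that of Bcl2a1d up to 1.21. Bcl2l1 stood at 27.4 CPM in non-efferocytic and 52.4 CPM in efferocytic BM macrophages of Experiment 1, and at 23.5 and 90.0 CPM in Experiment 2. Both efferocytic libraries lay well above both non-efferocytic ones, and the second one highest. The log2 fold change was 1.55 (SE 0.184, n = 2 libraries per group, adjusted p = 0.000703 by edgeR), a 2.92-fold rise, with log2 ratios of 0.93 and 1.94 within the experiments. After every cell was thinned to 5000 UMIs, 11.4% and 10.5% of non-efferocytic cells held at least 1 Bcl2l1 UMI, against 20.5% and 34.8% of efferocytic cells. Whether the rise differed between the experiments cannot be tested with 1 library per group in each.

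The gene lies at chr2:152780668-152831728 on the minus strand of mm10. The 300-base window around its most upstream start in RefSeq (250 bases before and 50 after, GRCm38.p6, chr2:152831679-152831978, minus strand) is shown because the study turns on hypoxia signaling. Capitals mark the core letters of a hypoxia response element, ACGTG or GCGTG on either strand, overlapping matches each counted.
Bcl2l1: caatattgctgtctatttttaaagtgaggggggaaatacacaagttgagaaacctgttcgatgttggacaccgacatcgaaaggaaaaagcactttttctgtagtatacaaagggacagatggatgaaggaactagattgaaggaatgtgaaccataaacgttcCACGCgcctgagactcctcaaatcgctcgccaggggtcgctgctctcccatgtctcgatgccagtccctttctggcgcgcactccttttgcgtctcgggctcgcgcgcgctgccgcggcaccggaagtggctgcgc
It held 1 match, as CACGC, and 43.8% of 32851 RefSeq promoter windows of this length hold at least 1. Over the 14 windows of the 9 members that RefSeq's table held, 9 windows of 6 members had a match. These were windows of Bcl2l1, Bcl2l11, Bbc3, Bax, Bcl2a1b and Bcl2a1d, whose changes went both ways. A loose form of the NF-kB site (3 G and 2 C around any 5 bases) was in 11 windows of 8 members against 50.8% of all windows, and TATAAA in 0 of 14 against 13.6%.

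Bcl2a1b and Bcl2a1d encode near-identical copies of A1, a survival protein induced by inflammatory signals in myeloid cells. Bcl2a1b measured 177 and 163 CPM in the non-efferocytic libraries of Experiments 1 and 2 and 305 and 271 CPM in the efferocytic ones. Its log2 fold change was 0.87 (SE 0.0947, adjusted p = 0.000486), with close values within the experiments, 0.78 and 0.73. Bcl2a1d measured 6.99 and 7.46 CPM against 15.1 and 11.9 CPM, a log2 fold change of 1.00 (SE 0.131, adjusted p = 0.00108). For both genes the groups stood apart in each experiment. For Bcl2a1d the barcodes with under 100 UMIs, which hold free RNA, stood above the cells (17.0 and 24.9 CPM in Experiment 1, 24.0 and 34.0 CPM in Experiment 2). The thinned share of cells with a Bcl2a1b UMI was 39.7% and 39.0% in non-efferocytic and 56.8% and 52.0% in efferocytic cells. Among fibroblast-like cells, 13 to 36 per library, it was 3.33% and 5.56% in non-efferocytic and 38.5% and 14.3% in efferocytic libraries. The part of free RNA in these was not tested. Another copy, Bcl2a1a, was near the limit of detection (0.247 and 0.328 CPM in Experiment 1, 0.708 and 0.200 CPM in Experiment 2, not called), and Bcl2a1c had too few counts to be tested.

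The copies sit apart on chromosome 9, Bcl2a1b at chr9:89199209-89207827 on the plus strand and Bcl2a1d at chr9:88723285-88731914 on the minus strand of mm10. Their RefSeq promoter windows (GRCm38.p6, chr9:89199023-89199322, plus strand, and chr9:88731801-88732100, minus strand) are shown because the pair rose together and because reads may not tell the copies apart. Capitals mark the bases that differ where the windows align.
Bcl2a1b: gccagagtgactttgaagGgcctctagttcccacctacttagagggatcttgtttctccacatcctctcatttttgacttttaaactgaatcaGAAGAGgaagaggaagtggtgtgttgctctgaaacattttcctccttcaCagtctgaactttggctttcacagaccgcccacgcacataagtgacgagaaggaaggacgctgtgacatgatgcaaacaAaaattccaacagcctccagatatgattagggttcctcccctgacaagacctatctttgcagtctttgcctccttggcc
Bcl2a1d: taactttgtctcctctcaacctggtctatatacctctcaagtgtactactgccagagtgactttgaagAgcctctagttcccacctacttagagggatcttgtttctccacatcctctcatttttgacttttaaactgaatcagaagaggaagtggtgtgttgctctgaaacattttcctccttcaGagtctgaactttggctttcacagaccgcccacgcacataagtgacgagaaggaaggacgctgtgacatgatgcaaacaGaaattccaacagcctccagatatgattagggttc
Of 256 aligned columns 247 were identical (96.5%), with 3 substitutions and 6 bases present in Bcl2a1b alone. In the last 600 bases of their transcripts, where the 3′ kit reads, 68.3% of the 100-base stretches of Bcl2a1b and 65.7% of those of Bcl2a1d also occurred in another gene (Bcl2a1a, the other of the pair, or Gm29094, which overlaps Bcl2a1b on the same strand). The split of counts between the copies is therefore uncertain.

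Bcl2, the founding member of the family, was scarce. It had 280 UMIs (2.77 CPM) in non-efferocytic and 426 UMIs (3.41 CPM) in efferocytic BM macrophages of Experiment 1, and 337 (2.44 CPM) and 1375 (8.86 CPM) in Experiment 2. One efferocytic library thus stood far above the other 3, and the other lay only slightly above the non-efferocytic pair. The log2 fold change was 1.22 (SE 0.296, adjusted p = 0.0138), with 0.30 within Experiment 1 and 1.86 within Experiment 2, and without the efferocytic library of Experiment 2 it was 0.54 (adjusted p = 0.115). The call was lost in 3 of the 4 fits with 1 library left out (adjusted p up to 0.253) and without the block (0.0878). Of the 337 Bcl2 UMIs in the non-efferocytic library of Experiment 2, 62 (18.4%) came from 71 T or NK cell-like cells, in which Bcl2 stood at 519 CPM. Without barcodes shared by both libraries the log2 fold change was 1.32 (adjusted p = 0.0227). Barcodes with under 100 UMIs had 36.9 and 40.0 CPM of Bcl2 in Experiment 1 and 7.24 and 11.9 CPM in Experiment 2, each above the level in the cells of its library. With 10% of UMIs removed as free RNA the log2 fold change of Bcl2 was 2.20 (adjusted p = 0.0296, 18.6% of all genes called), so that its size depends on this step. The step left no Bcl2 UMIs in either library of Experiment 1, so that this value rests on Experiment 2 alone. Thinned to 5000 UMIs, 1.23% and 0.959% of non-efferocytic and 1.67% and 4.09% of efferocytic cells had a Bcl2 UMI. Neutrophil-like cells held it in 4.29% and 3.54% of non-efferocytic and 0% of 23 and 22 efferocytic cells (exact upper limits 14.8% and 15.4%). No cell class here was taken as a background for Bcl2, and the part of free RNA in these UMIs was not tested per cell. The shares were therefore not read as cells that express it. The gene (chr1:106538178-106714274, minus strand) overlaps an antisense transcript, D630008O14Rik, and on its own strand Gm37053 and Mir3473f.

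Mcl1, which encodes a short-lived survival protein, was the most abundant survival transcript and did not pass the test. It stood at 484 and 527 CPM in Experiment 1 and at 473 and 489 CPM in Experiment 2, non-efferocytic first, with a log2 fold change of 0.19 (SE 0.106, adjusted p = 0.185). The 4 libraries lay within a narrow band, with the efferocytic one the higher of each pair. As UMIs per 1000 cells the values were 5916 and 9837, and 4880 and 9024, and in that scaling Mcl1 was called higher (log2 fold change 0.81). At 5000 UMIs a cell, 87.8% to 89.7% of cells held an Mcl1 UMI in all libraries.

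Of the effectors, Bak1 rose and Bax did not pass the test. Bax was very even between the experiments, at 438 and 438 CPM in the non-efferocytic and 333 and 333 CPM in the efferocytic libraries of Experiments 1 and 2. The groups did not overlap, and the log2 fold change of -0.29 (SE 0.0996) had an adjusted p of 0.0512, just above the threshold, while 9 of 17 alternatives with all 4 libraries put it below. Per cell the direction of Bax turned, to 0.33 (adjusted p = 0.0888), and efferocytic cells held 6213 and 6146 Bax UMIs per 1000 cells against 5352 and 4518. Bak1 rose from 48.8 to 60.3 CPM in Experiment 1 and from 51.7 to 76.2 CPM in Experiment 2 (log2 fold change 0.54, SE 0.0813, adjusted p = 0.00191), though the call was lost in 3 of the 4 fits with 1 library left out (adjusted p from 0.0143 to 0.178 over the 4). Both efferocytic libraries were above both non-efferocytic ones, and the direction was the same under every scaling. Bax (chr7:45461697-45466898, minus strand) shares 10.7% of its 3′-end 100-base stretches with Gm45808, which overlaps it on the same strand, and Bak1 (chr17:27019810-27029009, minus strand) overlaps Ggnbp1 on the opposite strand.

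**Figure D2:**
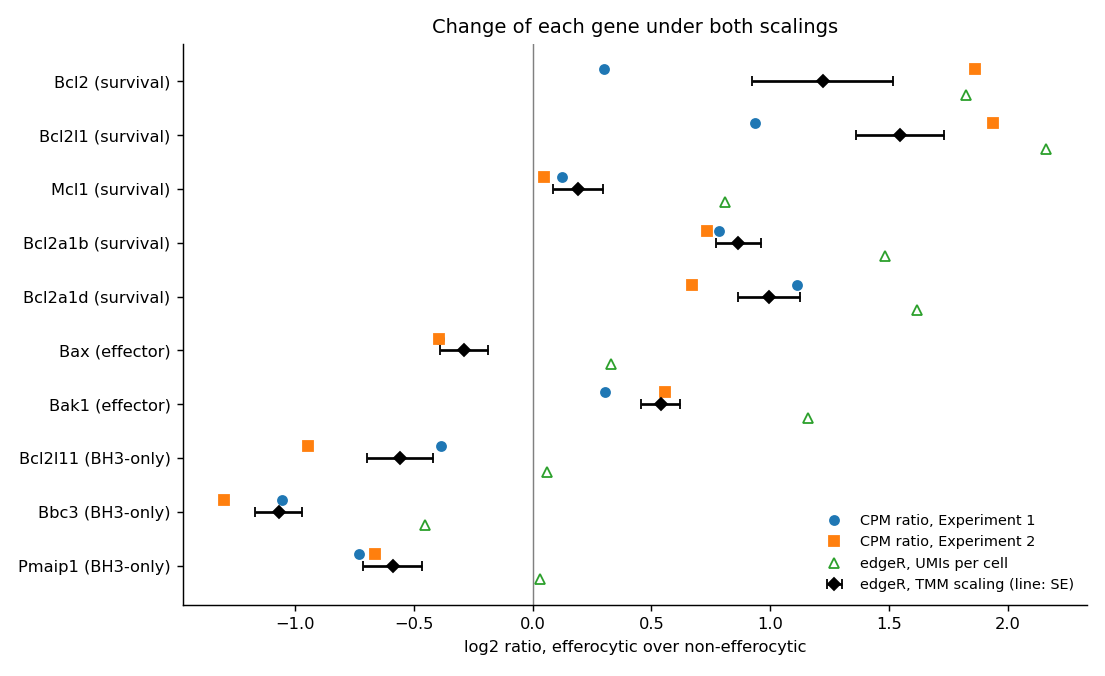
Log2 ratio of efferocytic over non-efferocytic for each gene; black diamonds with lines are the edgeR fold change and its SE, blue circles and orange squares the CPM ratio within Experiments 1 and 2, and green triangles the edgeR fold change when libraries are scaled to their number of cells. The survival genes and Bak1 lie right of 0 under both scalings, while Bax, Bcl2l11 and Pmaip1 lie left of 0 as shares of RNA and right of it per cell.

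All 3 BH3-only genes took a smaller share of the RNA in efferocytic BM macrophages. Bbc3, the gene of PUMA and a classical p53 target, fell most, from 28.1 to 13.5 CPM in Experiment 1 and from 23.8 to 9.68 CPM in Experiment 2. Neither efferocytic library came near a non-efferocytic one, and the log2 fold change was -1.07 (SE 0.0990, adjusted p = 0.000242). It was the only member that stayed lower per cell, at -0.45 on the log2 scale, where it was not called (adjusted p = 0.137). Bcl2l11, the gene of BIM, a killer of cells deprived of growth factor, measured 91.3 and 91.0 CPM in the non-efferocytic libraries of Experiments 1 and 2 and 69.9 and 47.3 CPM in the efferocytic ones. The log2 fold change was -0.56 (SE 0.138, adjusted p = 0.0149), with -0.39 and -0.94 within the experiments. Both efferocytic libraries were lower, the second one by more. The call was lost in 3 of the 4 fits with 1 library left out (adjusted p = 0.192 without that library, and up to 0.333), without the block (0.135) and with free RNA removed (0.0898). Per cell the direction turned, with 1116 and 1305 UMIs per 1000 cells in Experiment 1 but 939 and 874 in Experiment 2 (log2 fold change 0.061, adjusted p = 0.839).

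Pmaip1, the gene of NOXA, which binds MCL1 above all, was low throughout. It had 497 UMIs (4.91 CPM) and 370 UMIs (2.96 CPM) in Experiment 1, and 568 (4.11 CPM) and 403 (2.60 CPM) in Experiment 2, non-efferocytic first. The groups did not overlap, and the log2 fold change was -0.59 (SE 0.125, adjusted p = 0.008). The call was lost with any 1 library left out (adjusted p from 0.0519 to 0.324) and without the block (0.0678). Per cell it was 0.030, with 60.0 and 55.3 UMIs per 1000 cells in Experiment 1 and 42.4 and 47.9 in Experiment 2, opposite ways in the experiments. Between 1.32% and 2.51% of thinned cells held a Pmaip1 UMI, and no cell class here is known to lack the gene, so that no background share can be given.

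Bbc3 lies at chr7:16308393-16318205 on the plus strand and Bcl2l11 at chr2:128126038-128162547 on the plus strand of mm10. Of the 3 RefSeq promoter windows of Bbc3 the most upstream (GRCm38.p6, chr7:16309333-16309632, plus strand) is shown beside that of Bcl2l1, which was chosen in the same way, since the genes had the lowest and the highest log2 fold change of the 10, again with the hypoxia core letters in capitals.
Bbc3: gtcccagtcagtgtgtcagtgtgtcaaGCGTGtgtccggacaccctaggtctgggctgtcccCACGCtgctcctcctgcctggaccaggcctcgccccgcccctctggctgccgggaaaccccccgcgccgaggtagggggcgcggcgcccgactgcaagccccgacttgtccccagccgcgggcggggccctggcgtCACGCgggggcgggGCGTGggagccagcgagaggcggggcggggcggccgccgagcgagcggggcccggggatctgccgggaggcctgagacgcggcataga
It held 4 matches, and the other windows of Bbc3 held 1 and 3, while the 3 windows of Bcl2l1 held 1, 1 and 0. GC content was 74.7% to 78% over the windows of Bbc3 and 49.3% to 55.7% over those of Bcl2l1. The letters GTAAACA, bound by FOXO factors, were in 2 of the 14 windows, 1 each of Bcl2l11 and Bbc3 (both strands searched), against 3.65% of all windows.

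By role, the pool of BCL2 family transcripts shifted. In a 3′ library a molecule counts once whatever its length, so that UMIs of the members can be summed. The 10 genes together held about the same share of each library, 1310 and 1383 CPM in Experiment 1 and 1278 and 1339 CPM in Experiment 2. Survival transcripts made up 53.3% of these UMIs in non-efferocytic and 65.3% in efferocytic BM macrophages of Experiment 1, and 52.4% and 65% in Experiment 2. The share of BH3-only transcripts went from 9.50% to 6.25% and from 9.31% to 4.45%, and that of the effectors from 37.2% to 28.4% and from 38.3% to 30.6%. Mcl1 kept 36.5% to 38.1% of the pool in all 4 libraries. A share of this pool does not depend on how libraries are scaled, but it follows the abundant members, Mcl1, Bax and Bcl2a1b.

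**Figure D3:**
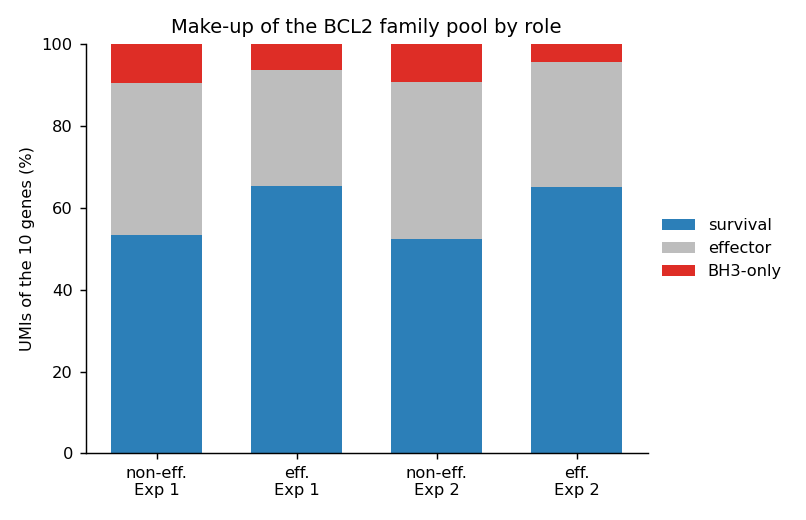
Percent of the UMIs of the 10 genes that belong to survival, effector and BH3-only genes (stacked bars, 1 per library, each summing to 100%). The survival part is larger in both efferocytic libraries (65.3% and 65%) than in the non-efferocytic ones (53.3% and 52.4%), and the BH3-only part smaller.

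Shares of cells with a UMI followed the levels. At 5000 UMIs per cell (544 and 505 efferocytic and 1099 and 3404 non-efferocytic cells were shallower and left out) UMIs of the 5 survival genes and Bak1 were found in a larger share of efferocytic cells in both experiments, though for Bcl2 in Experiment 1 the 95% intervals overlapped (0.984% to 1.51% against 1.37% to 2.03%). For Mcl1 in Experiment 2 they overlapped as well (87.1% to 88.4% against 88.2% to 89.6%). Free RNA held Bcl2, Bcl2a1d and Pmaip1 at a higher level than the cells in all 4 libraries, Bbc3 in both efferocytic ones (19.7 and 15.1 CPM), Bcl2a1b and Mcl1 in both of Experiment 2, and Bcl2l1 in the non-efferocytic one of Experiment 2 (29.1 CPM). No class was taken as a background for any member, so that a share of cells with a UMI is not a share of cells that express the gene. The differences in Experiments 1 and 2 were 9.10 and 24.3 percentage points for Bcl2l1, 17.1 and 12.99 for Bcl2a1b, 4.78 and 9.75 for Bak1, 3.51 and 2.50 for Bcl2a1d, 1.87 and 1.17 for Mcl1, and 0.449 and 3.13 for Bcl2. The differences were -9.82 and -8.06 points for Bax, -5.49 and -13.9 for Bcl2l11, -6.43 and -5.78 for Bbc3, and -0.913 and -0.713 for Pmaip1. Their size depended on the depth chosen, with the same signs at 2500 and 10000 UMIs: the differences were 5.50 and 13.9 points at 2500 and 14.0 and 37.1 points at 10000 UMIs for Bcl2l1, and -9.85 and -10.3 and then -3.91 and -2.67 points for Bax. Without thinning, deeper efferocytic cells put Bcl2l11 in 64.0% and 50.6% of cells against 57.9% and 50.5% of non-efferocytic cells, the reverse direction, and Bax and the mean of Pmaip1 turned as well.

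**Figure D4:**
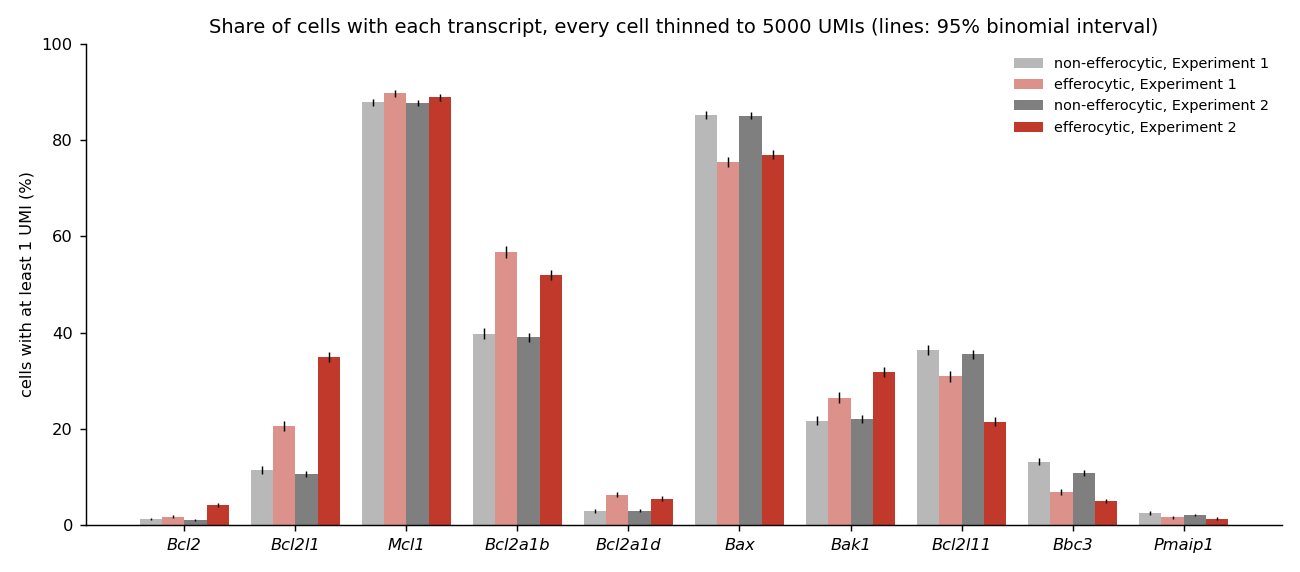
Percent of cells with at least 1 UMI of each gene after thinning every cell to 5000 UMIs, for the non-efferocytic (grey) and efferocytic (red) libraries of Experiment 1 (pale) and Experiment 2 (full color); lines are exact 95% binomial intervals, which cover counting error only. Shares of Bcl2l1 and Bcl2a1b are larger in efferocytic cells (up to 34.8% and 56.8% of cells), and shares of Bax, Bcl2l11, Bbc3 and Pmaip1 smaller.

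The same directions were looked for inside clusters, since the mix of cells differed: 92.9% of non-efferocytic and 88.7% of efferocytic cells were in clusters classed as macrophage-like in Experiment 1, but 55.6% and 93.6% in Experiment 2. Left out of that class, though all 10 macrophage markers were detected in them, were clusters whose leading genes held more markers of another class. The one in Experiment 2, with 24.9% of non-efferocytic cells, was led by MHC class II genes and Ccr2 and held 1.44% of the efferocytic cells, and the one in Experiment 1, led by Arg1, held 424 efferocytic cells. Unnamed clusters of few UMIs held 17.8% of the non-efferocytic cells of Experiment 2. The members took no part in the clustering. Without shared barcodes 13 clusters, leaving out the unnamed ones, had at least 50 cells of each library of their experiment, the MHC class II cluster among them. Bax and Bbc3 were lower in the efferocytic cells of all 13, beyond the 95% counting interval in 12 and 10 of them, and Bcl2l11 was lower in 12 (11 beyond counting). Bcl2a1b was higher in all 13 (12 beyond counting), Bcl2l1 and Bcl2a1d in 12 (10 and 5), Bak1 in 11 (5) and Bcl2 in 9 (5), its 4 exceptions all being clusters of Experiment 1 and the 5 beyond counting all of Experiment 2. Mcl1 was split, higher in 8 and lower in 5, and Pmaip1 was lower in 10 and higher in 3. The clusters of an experiment share 2 libraries and are not replicates, so that these counts carry no test.

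**Figure D5:**
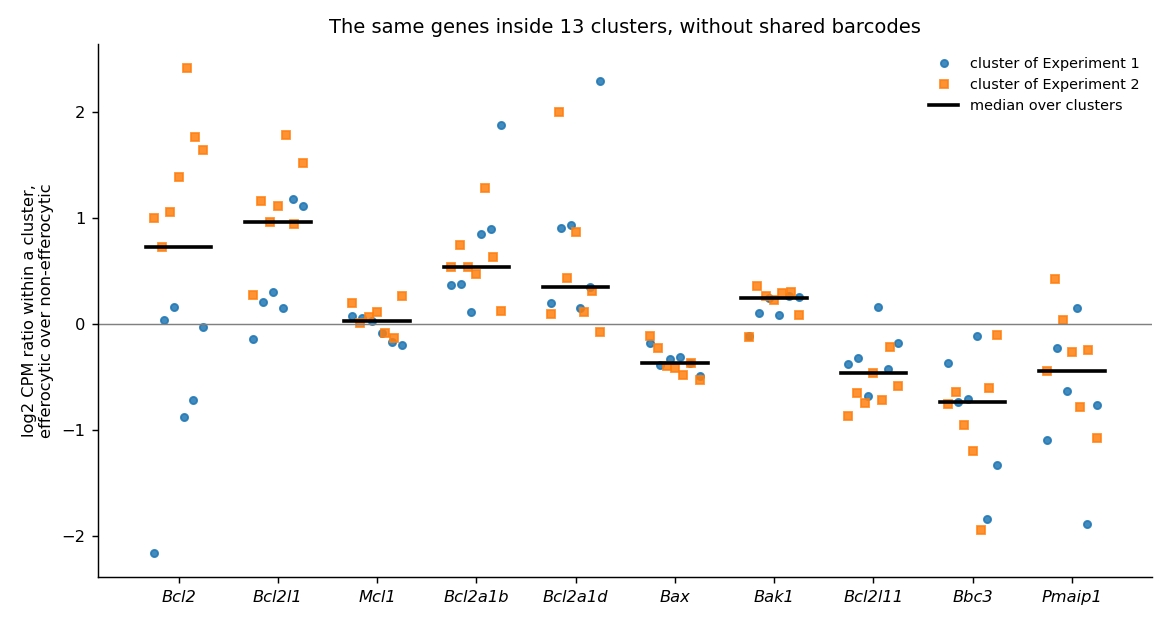
Log2 ratio of CPM in efferocytic over non-efferocytic cells of the same cluster, for 6 clusters of Experiment 1 (blue circles) and 7 of Experiment 2 (orange squares), without barcodes shared by the libraries; black bars are medians. All points of Bax and Bbc3 lie below 0 and all points of Bcl2a1b above it, while Mcl1 straddles 0 with a median of 0.026.

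Within clusters the log2 ratios of Bcl2l1 had a median of 0.96 and ran from -0.14 to 1.79. In Experiment 1, where the whole libraries gave 0.93, 2 of the 6 compared clusters lay above that, at 1.18 (led by Cxcl10 and Rsad2) and 1.12 (cycling cells), and the other 4 below it, at 0.20 (led by Fabp4, Pf4 and Calr), 0.30 (Mmp12, Cdkn1c and Slamf8), 0.15 (Prss46, Ero1l and Slpi) and -0.14 (Ier3, Hpgd and Ighm). Bcl2l1 also differed between clusters of the same library. Over the non-efferocytic cells of these 6 clusters it ran from 17.6 CPM (Cxcl10 and Rsad2) to 54.2 CPM (Prss46, Ero1l and Slpi). In Experiment 2 all 7 clusters lay below the 1.94 of the whole libraries. In Experiment 2 it was highest in a cluster led by Cnrip1, Pf4 and Tfrc, at 108 CPM in 3664 efferocytic cells and 89.5 CPM in 93 non-efferocytic cells, with a counting interval of the ratio that included 0 on the log2 scale. In a cluster of cycling cells (led by Hist1h2ap, Birc5 and Cenpf) it was 64.8 CPM in efferocytic and 18.8 CPM in non-efferocytic cells, the largest log2 ratio of the 13 (1.79), and the log2 ratio of Bbc3 was also the farthest from 0 there (-1.95, 7.80 against 30.1 CPM). Mcl1 and Bcl2a1b peaked together in 424 efferocytic cells of Experiment 1 led by Arg1, Ankrd37 and Bnip3, at 904 and 579 CPM, where medians over 31 cluster and library pairs were 497 and 191 CPM. That cluster held 3 non-efferocytic cells, and no ratio was taken. Among the 31 pairs, which leave out shared barcodes, Bbc3 was highest in non-efferocytic cells led by Cxcl10 and Rsad2, interferon-response genes. It stood at 44.0 CPM there, against 12.2 CPM in the 54 efferocytic cells of that cluster. With shared barcodes kept, T or NK cell-like cells of Experiment 2 had more Bbc3, 83.7 CPM (10 UMIs) in non-efferocytic and 58.1 CPM (6 UMIs) in efferocytic cells. Bax (676 CPM, non-efferocytic) and Bak1 (130 CPM, efferocytic) both peaked in a cluster of Experiment 2 led by Ifrd1, Cav1 and Ddit3. Bcl2l11 was highest, at 129 CPM, in efferocytic cells of Experiment 1 led by Prss46, Ero1l and Slpi, the single cluster where it was not lower than in non-efferocytic cells (116 CPM).

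In the macrophage-like clusters alone, without the MHC class II and Arg1 clusters, summed and tested in the same way, 5 members were called higher and 4 lower, Bax (log2 fold change -0.33, adjusted p = 0.0277) being the addition, with 35.2% of 12938 genes called. Without cells that held a UMI of the neutrophil markers S100a8, S100a9, Ngp, Camp, Ltf, Elane, Mpo or Prtn3 the count was also 5 and 4 (38.7% of all genes called). This kept 6366 of 8280 non-efferocytic and 4998 of 6695 efferocytic cells in Experiment 1. In Experiment 2 it kept 6852 of 13411 and 6840 of 8408, so that the groups lost unlike shares of cells. In neutrophil-like cells, which made up under 1% of each library, Bcl2a1b stood at 38.6 to 51.2 CPM and Mcl1 at 236 to 329 CPM, below macrophage-like cells.

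The genes whose levels most resembled those of a member over 39 cluster and library pairs of at least 50 cells were described by Pearson's r of log2(CPM + 1), among the 7097 genes whose mean was 10 CPM or more. The pairs share 4 libraries and differ in depth, and 2 of them are the T or NK cell-like cells that share barcodes, so that r carries no test. Among the genes reported here, Bcl2l1 went with Naa20 (0.89) and Plpp3 (0.87). Mcl1 went with Tec (0.89), Trim25 (0.88) and Sh3bp2 (0.87), though within the 29 macrophage-like pairs these were 0.61, 0.64 and 0.50. The nearest to Bcl2a1b were Gngt2 (0.79), Cmbl (0.74) and Cyb5a (0.72), and to Bcl2a1d Itgax (the gene of CD11c, 0.68), Aig1 (0.67) and Bcl2a1b itself (0.64), with which it shares sequence. For Bax they were Gclm (0.88), Rrp36 (0.87) and Smim3 (0.87), and for Bak1 Vapa, Ddb1 and Ywhae (each 0.91). Bcl2l11 went with Ambra1 (0.72), Cast (0.72) and Adam17 (0.71), and Bbc3 with Btg1 (0.80), H2-K1 (0.79) and Txnip (0.77). Within the 29 macrophage-like pairs r was higher only for Cmbl (0.80), Itgax (0.74) and Ywhae (0.95). For all other genes named here it was lower, down to 0.49 for Aig1. Bcl2 and Pmaip1 were too scarce for this comparison.

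Of the other BCL2 family genes 12 of 16 were tested, with 4 higher, 1 lower and 7 not called, a share of calls near the 38.9% of all genes. Such counts are a description, and in the lists on caspase inhibitors, death receptors, MCL1 turnover and BH3-only gene regulators below the share of calls was lower than over all genes. In the lists on the apoptosome and caspases and on p53 it was higher. The BH3-only gene Bmf fell from 10.2 to 5.14 CPM and from 8.79 to 2.29 CPM (log2 fold change -1.35, adjusted p = 0.00244), and stayed lower per cell (-0.74, adjusted p = 0.0204). Bid, a BH3-only gene activated by caspase-8, rose from 15.8 to 21.6 CPM and from 16.2 to 35.6 CPM (0.91, adjusted p = 0.00175), so that not every BH3-only gene fell. Bnip3, Bnip3l and Bik were the other 3 that rose. The median log2 fold change of the 12 was 0.25.

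Downstream of the mitochondria, 4 of 11 genes of the apoptosome and caspases were higher and 3 lower, where 19.9% of all genes were higher and 19.0% lower. Cycs, the gene of cytochrome c, rose from 98.1 to 164 CPM and from 106 to 195 CPM (log2 fold change 0.92, adjusted p = 0.000250), and Casp2 fell from 16.0 to 10.6 CPM and from 15.4 to 8.10 CPM (-0.66, adjusted p = 0.00331; -0.037 per cell, not called). Casp6 (-0.28, adjusted p = 0.0278) was also lower as a share of RNA, with 0.34 per cell, where it was not called. Among caspase inhibitors and their antagonists 2 of 8 were lower: Birc3 (-0.92, adjusted p = 0.000257) and Birc2 (-0.54, adjusted p = 0.00297), which encode the ubiquitin ligases cIAP2 and cIAP1, though neither was called per cell (-0.30 and 0.075). In death receptor signaling 1 of 10 rose, Ripk3 (0.52, adjusted p = 0.00422), the kinase of necroptosis, and 1 fell, the receptor gene Fas (-0.92, adjusted p = 0.000308), not called per cell (-0.30).

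Genes of p53 and its targets, without the members, were lower in 10 of 18 and higher in 1, with a median log2 fold change of -0.49. Over all genes 19.0% were lower and 19.9% higher. Btg2, an antiproliferative gene, fell from 43.3 to 14.7 CPM and from 29.5 to 6.15 CPM (-1.79, adjusted p = 0.000229), and Phlda3, an inhibitor of AKT, from 33.7 to 11.7 CPM and from 22.8 to 7.81 CPM (-1.43, adjusted p = 4.87e-05). Trp53 itself was not called (-0.21, adjusted p = 0.0505). Counted per cell, 4 of the 18 were called lower, Btg2 (-1.18) and Phlda3 (-0.81) among them, 3 were called higher, and the median was 0.13. Mdm2, Ccng1, Zmat3 and Sesn1 changed sign there.

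Of 7 genes listed under MCL1 turnover, not all of which act on the protein itself (Cdk9), Fbxw7, part of a ubiquitin ligase, rose from 20.7 to 31.5 CPM and from 23.6 to 36.5 CPM (log2 fold change 0.72, adjusted p = 0.000419). The other 6 were not called. Vdac2, a channel of the outer membrane that holds BAK, was 1 of 3 of its kind to be called (0.30, adjusted p = 0.0428). Of 9 genes that regulate the BH3-only genes 8 were not called, Foxo3 (-0.19, adjusted p = 0.0673) and Jun (0.42, adjusted p = 0.0582) among them. The exception was Csf1r, the M-CSF receptor, which fell from 849 to 364 CPM and from 732 to 300 CPM (-1.15, adjusted p = 0.000265) and stayed lower per cell (-0.53, adjusted p = 0.00342).

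These lists read differently when UMIs per cell were compared, where 54.1% of all genes were called and most of those as higher. Then 8 of the 12 other BCL2 family genes were higher and 1 lower, and 6 of 11 genes of the apoptosome and caspases, 4 of 8 caspase inhibitors and antagonists, 7 of 10 death receptor genes, 6 of 7 genes of MCL1 turnover and all 3 Vdac genes were higher with none lower. Of the 9 regulators 4 were higher and 1, Csf1r, was lower. Bmf, Btg2, Phlda3 and Csf1r were thus lower under both scalings.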

How the data were processed

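The authors mapped reads with Cell Ranger (mm10; version 3.0.0 per the labels, 3.1.0 in the file headers of Experiment 2), and the deposited matrices hold unfiltered UMI counts. Per library, the counts of all cells were added up, and the sums were compared by edgeR 4.0.16 under R 4.3.3 (TMM, filterByExpr, quasi-likelihood test, experiment as block), with Benjamini-Hochberg adjustment over 13869 genes at 0.05. Libraries of an experiment deviated together from their group means (correlation 0.672 across 7097 genes, which are not replicates). P-values rest on a spread between these 4 libraries that edgeR draws toward a common value over all genes. They do not measure the spread of a gene by itself. The SE was worked out from the fold change and its test statistic, and has the same limit. Intervals cover counting error only. CPM is relative to all UMIs in cells.

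Both libraries of an experiment were clustered jointly by Leiden (resolution 0.5, 20 components, 5000 genes without the members; scanpy 1.11.5, leidenalg 0.10.2), and clusters were named from markers. Doublets were kept, since Scrublet's own threshold marked under 0.5% of cells; an alternative removed them by score. Other alternatives were DESeq2 1.42.0, other scalings and filters, and each library left out. Positions are from GENCODE vM21, promoter windows from RefSeq (GRCm38.p6). Scripts were tested on simulated data.

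Members and lists were chosen with earlier results of these data known. By rule the text names the members, the 2 called genes of each list with the largest change (mean of 1 CPM or more) and the 3 genes most like each member whose mean reached 5 CPM; other genes were named after their values were seen, and some genes are not reported here.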

Additional observations from a re-analysis of the deposited data

Results flagged for a closer look

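Barcodes with over 10% mitochondrial UMIs took no part in the comparisons above, 391 and 548 in the non-efferocytic and efferocytic libraries of Experiment 1 and 665 and 480 in Experiment 2. Over their non-mitochondrial UMIs, Bcl2l1 and Bcl2a1b were higher in the efferocytic barcodes of both experiments, beyond counting error.

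Bcl2l1 had 12 and 46 UMIs (21.4 and 68.8 CPM) in Experiment 1 and 37 and 146 UMIs (30.5 and 164 CPM) in Experiment 2. The log2 ratios were 1.69 (95% interval 0.75 to 2.74) and 2.43 (1.90 to 2.99), with a mean of 2.06. Bcl2a1b had 62 and 157 UMIs (110 and 235 CPM) and 131 and 188 UMIs (108 and 211 CPM), with log2 ratios of 1.09 (0.66 to 1.54) and 0.97 (0.64 to 1.30) and a mean of 1.03. Bbc3 and Bax were lower in both experiments, also beyond counting error, with log2 ratios of -1.17 and -1.03 for Bbc3 and -0.39 and -0.48 for Bax. Bcl2 (1.33 and 2.62), Mcl1 (0.36 and 0.085), Bak1 (0.43 and 0.65) and Bcl2l11 (-0.37 and -1.07) had the sign of the cells in both experiments, each beyond counting error in 1 of them. The ratios were -0.93 and 0.22 for Bcl2a1d and 0.070 and 1.77 for Pmaip1, from 2 to 8 UMIs per library and within counting error. There was 1 library per group in each experiment, the difference was not tested over libraries, and the part of free RNA or dying cells in it was not tested.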

How the results depend on the processing

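Of the 17 alternatives that kept all 4 libraries, the scaling to UMIs per cell was the only one that changed the direction of a member: Bax (0.33), Bcl2l11 (0.061) and Pmaip1 (0.030) turned, and the number of members called lower was 0. Without the replicate block, 4 members were called higher and 1 lower, Bcl2, Bcl2l11 and Pmaip1 losing their calls, and the genes called went from 5397 to 2358. With 1 library left out the block could not be fitted, and 0 to 5 members were called higher and 0 to 2 lower. Of all genes, 2 were called without the non-efferocytic library of Experiment 1, 0 without that of Experiment 2, and 2933 and 1204 without the efferocytic ones. DESeq2 called 3389 genes and removal of free RNA 2473, where Bcl2l11 lost its call (adjusted p = 0.0898). A filter at a mean of 10 CPM left 1473 genes called higher and 1553 lower. Per cell 6921 genes were higher and 586 lower, and with library totals 1847 and 3700 (all-gene median -0.12), against 2761 and 2636. Without thinning, the mean difference in the share of cells turned to 5.01 points for Bax, 3.11 for Bcl2l11 and 0.017 for Pmaip1. Removal of Scrublet's own doublets was not run, since they were 0 to 3 cells per library; removal by score, leaving out shared barcodes and leaving out unnamed clusters were chosen after seeing the data. The cause of these changes was not tested.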
